A study of Arabidopsis with 26 samples.

Results

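SWP73A and SWP73B are paralogous Arabidopsis proteins of the SWI/SNF chromatin remodellers, and the comparison here is of where each was found on the genome. The 2 lines compared are SWP73A-GFP swp73a-2 and SWP73B-GFP swp73b-1, in which the subunit is fused to green fluorescent protein (GFP) and the name also carries a mutant allele of the tagged gene. Chromatin immunoprecipitation with an antibody against GFP and sequencing (ChIP-seq) gave 1 peak list per line, 2 of the 26 lists in the series. Members were chosen by the name of the deposited list. The sample label of the list named SWP73A-GFP swp73a-2 reads BCL7B-GFP bcl7b-1, and that of the list named SWP73B-GFP swp73b-1 reads SWI3D-GFP swi3d-1.

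All 26 libraries came from whole 14-day-old seedlings, so a region can be occupied in some cell types and not in others. The lists set beside the SWP73 lists are named BRM-GFP brm-1 (2 libraries), SYD-N-GFP syd-5 (4), MINU2-GFP minu2-1 (2), SWI3D-GFP swi3d-1 (3), and with 1 library each SWI3A-GFP swi3a-3, SWI3C-GFP, BSH-GFP bsh, BCL7A-GFP bcl7a and BCL7B-GFP bcl7b. Lines named with a second mutant allele, with 2 libraries each, are SWI3D-GFP swi3d-1 syd-5, BRM-GFP brm-1 syd-5, SYD-N-GFP syd-5 swi3d-1, and also SYD-N-GFP syd-5 brm-1. They enter the ranks at a line's own locus, the counts of lists per region and the plot of Jaccard indices. The SWI3C-GFP name carries no mutant allele. The promoter that drives each fusion and whether a line is 1 transformant are not given in the sources used here, and an untagged control was not analysed here. Each paralogue had 1 library, so no difference between SWP73A and SWP73B has a replicate check, no test was run, and the libraries' yield cannot be told apart from occupancy. The sequencing depth is unknown. Intervals below are Wilson 95% intervals, which cover counting error only, and the disagreement between 2 libraries of 1 line is used as the measure of replicate spread.

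SWI/SNF complexes use the ATPase activity of one subunit to slide or evict nucleosomes, and so change which DNA other proteins can reach. In Arabidopsis the ATPase is BRM, SYD or one of the closely related MINU1 and MINU2, each working in a complex of its own. BRM is known to work with SWI3C, SYD with SWI3D, and MINU proteins with SWI3A and BSH. SWP73 proteins, the plant relatives of the animal BAF60 subunits, are counted among the subunits that the complexes have in common, and SWP73B is known for roles in leaf and flower development and flowering time.

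Label and list name stated different lines for 19 of the 26 lists, so the names of the 2 SWP73 lists were checked against the tagged genes' own loci. At SWP73A (AT3G01890, gene and 500 bp on each side), peaks of the list named SWP73A covered 1958 bp, the most of the 26 lists. The other 25 lists covered between 0 and 1567 bp there, with a median of 583 bp. At SWP73B (AT5G14170), peaks of the list named SWP73B covered 1304 bp, again the most, against at most 1086 bp and a median of 343 bp in the others. The fold enrichment over background that the authors give for a peak was 15.4 there, above the highest value of the other lists, 13.7. At SWP73A the peak of the list named SWP73A had a fold of 5.17, which was the third highest, below 5.41 in the BSH list. The list labelled SWP73A-GFP swp73a-2 held no peak at SWP73A. The list labelled SWP73B-GFP swp73b-1 covered 650 bp at SWP73B with a fold of 13.7. Peak names in 4 lists of the series hold a line's name, and in 4 of 4 it matched the list name rather than the label; neither SWP73 list is among them.

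The lists differed in length before any comparison of sites. SWP73A had 8960 peaks on the 5 nuclear chromosomes, covering 5.30 Mb, with a median width of 480 bp and a median fold of 2.65. SWP73B had 21329 peaks covering 15.5 Mb, with a median width of 618 bp and a median fold of 3.23, and was the longest of the 26 lists, the shortest having 4383. The SWP73A list held 133 further peaks on the organelle genomes and the SWP73B list 98. Both belong to the 12 lists with such peaks, as do the MINU2, BSH, SWI3A, SWI3C and SWI3D lists, whereas the BRM, SYD, BCL7A and BCL7B lists had none.

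Almost every SWP73A site was also a SWP73B site. Of 8960 SWP73A peaks, 8708 overlapped a SWP73B peak by at least 1 bp (97.2%, interval 96.8% to 97.5%), and of 21329 SWP73B peaks 8410 overlapped a SWP73A peak (39.4%, interval 38.8% to 40.1%). Merging both lists gave 21491 regions, of which 8320 (38.7%) were shared, 252 (1.17%) held a peak of SWP73A alone and 12919 (60.1%) a peak of SWP73B alone. The shared percentage ran from 37.8% to 39.8% over the chromosomes, while the SWP73A-alone percentage was 2.20% on chromosome 2 and 0.903% to 1.03% on the others.

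Regions of 1 paralogue alone were the weaker ones of their list. Strength is given below as the percentile of a peak's −log10 q within its own list, 100 being the strongest. The median percentile in the SWP73A list was 21.5 for SWP73A-alone regions and 52.6 for shared regions. In the SWP73B list it was 38.0 for SWP73B-alone regions and 68.5 for shared regions. The share of SWP73B regions that SWP73A also occupied was 14.4% in the weakest quintile of the SWP73B list and 67.4% in the strongest. In the strongest decile of the lists there were nevertheless 585 SWP73B-alone regions and 11 SWP73A-alone regions.

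The longer list was then shortened to the same number of peaks. That number is the whole SWP73A list, down to a −log10 q of 1.46, but only the stronger part of SWP73B and of the other lists compared below. Library yield can therefore still affect the overlap, and the values at 8960 peaks are not fully like for like. The 8960 strongest SWP73B peaks were those with a −log10 q of at least 22.2. Of the SWP73A peaks 61.0% (interval 60.0% to 62.1%) overlapped one of these, and 58.1% (interval 57.0% to 59.1%) of them overlapped a SWP73A peak, a mean of 59.6%. In 11 pairs of libraries of 1 line (BRM, SYD, MINU2 and SWI3D lines) the same mean was 84.7% to 93.1% at this number, with a median of 87.7%. BCL7A against BCL7B, another pair of paralogues with 1 list each, gave 83.4%. The SWP73 value thus lay below all 11 of these same-line pairs and below the BCL7 pair. The lists in the same-line pairs had 13030 to 18711 peaks, more than the SWP73A list. Pairs within the lines with a second mutant allele, whose lists had 4383 to 16139 peaks, were not computed.

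The gap was also present among the strongest peaks. With the 500 strongest peaks of each list, the mean overlap was 35.5% for SWP73A and SWP73B, 64.0% to 89.2% for same-line pairs and 56.9% for BCL7A and BCL7B. The base-pair Jaccard index, the length covered by both lists over the length covered by either, was 0.332 at 8960 peaks, against 0.613 to 0.795 for same-line pairs and 0.647 for the BCL7 pair.

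**Figure D1:**
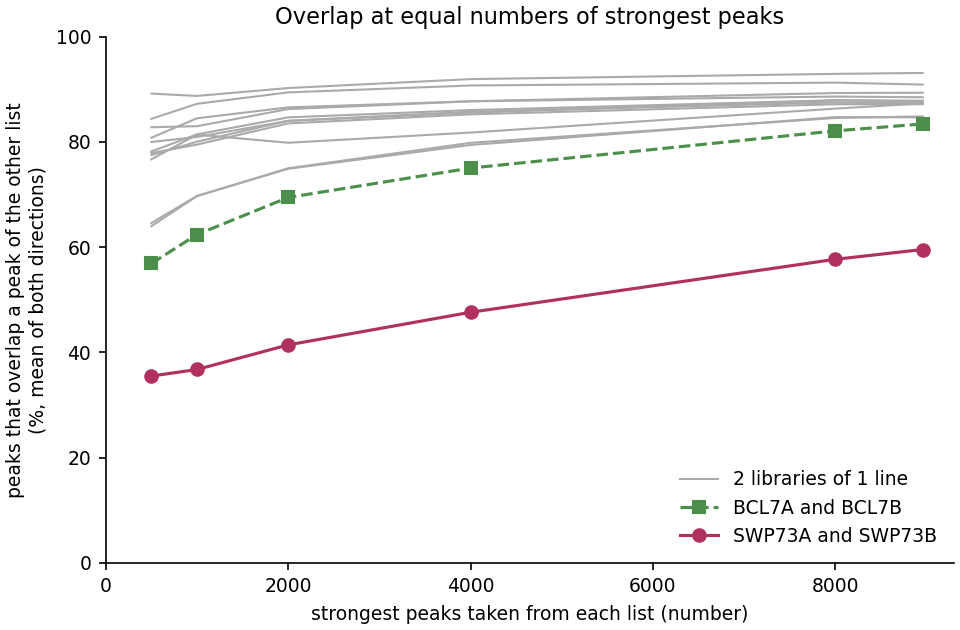
The plot gives, against the number of strongest peaks taken from each list, the percentage of peaks that overlap a peak of the other list (mean of both directions). The line for SWP73A and SWP73B runs from 35.5% at 500 peaks to 59.6% at 8960 and lies below all 11 same-line pairs (grey) and the BCL7 pair (dashed) at every number.

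The strongest sites were not exchanged evenly. Of the 1000 strongest SWP73A peaks, 932 (93.2%, interval 91.5% to 94.6%) were among the 8960 strongest of SWP73B. In the reverse direction 750 of the 1000 strongest SWP73B peaks (interval 72.2% to 77.6%) were in the SWP73A list, and 250 were not called there at all. Same-line pairs gave 98.3% to 100% over 22 directions, and the BCL7 pair 99.7% and 99.9%.

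At equal numbers the 12442 merged regions comprised 5195 shared (41.8%), 3490 SWP73A-alone (28.1%) and 3757 SWP73B-alone (30.2%). The separate classes are not alike. Of the 3490 SWP73A-alone regions, 3238 (92.8%) did hold a SWP73B peak, but one outside its 8960 strongest, with a median percentile of 38.0 in the SWP73B list. The 3757 SWP73B-alone regions had no SWP73A peak of any strength, since the whole SWP73A list was used, and their median percentile in the SWP73B list was 75.1. SWP73A-alone regions at equal numbers are therefore sites that rank lower in SWP73B, and SWP73B-alone regions are sites without a called SWP73A peak.

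Where both paralogues had a peak, its rank differed between them. Across the 8320 shared regions Spearman's rho of the −log10 q values was 0.470, and Pearson's r of their log10 values 0.510. Same-line pairs gave a rho of 0.834 to 0.958 and the BCL7 pair 0.843. At equal numbers (5195 regions) rho was 0.350, against 0.776 to 0.946 and 0.689. These coefficients describe regions of the same 2 libraries, which are not independent replicates.

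Summit positions were closer to replicate spread than ranks were. The median distance between the SWP73A and SWP73B summits of a shared region was 60 bp, with quartiles of 25 and 130 bp. Same-line pairs had medians of 26 to 54 bp and the BCL7 pair 56 bp. Within 100 bp lay 67.6% of the SWP73 summit pairs and 71.5% to 90.2% of those of same-line pairs.

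**Figure D2:**
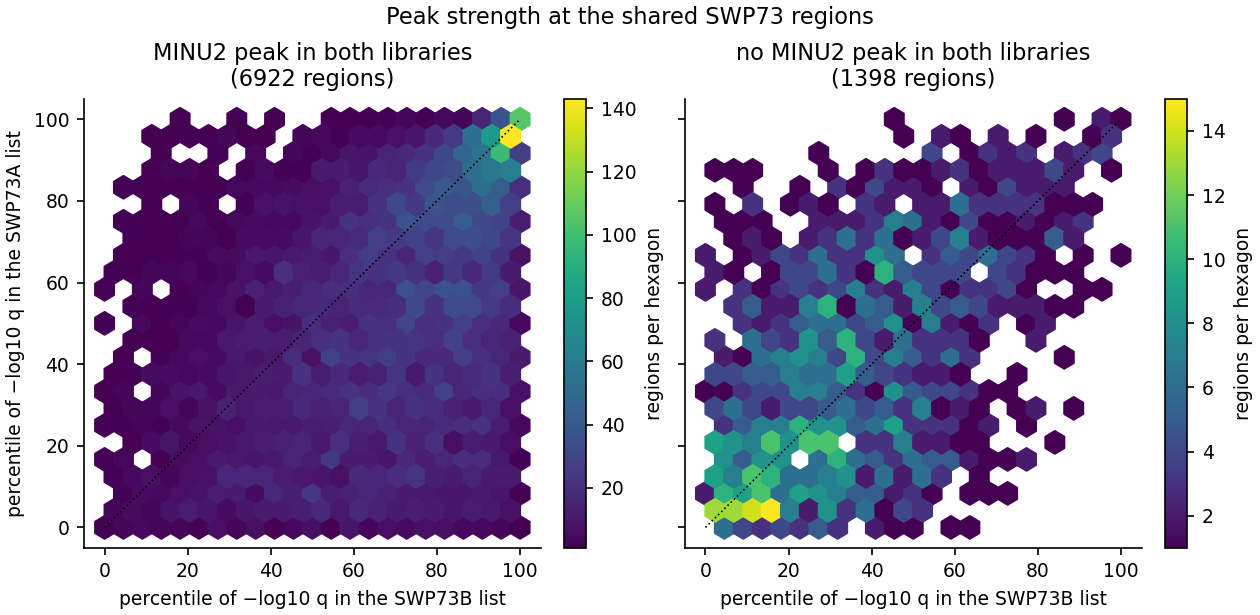
The plots give, for the shared regions, the percentile of −log10 q in the SWP73B list (x) against that in the SWP73A list (y), as regions per hexagon, for 6922 regions with a MINU2 peak in both libraries (left) and 1398 without (right). The dotted line marks equal percentiles; regions with MINU2 are densest at high percentiles of both lists and extend along the right edge, where SWP73B ranks high and SWP73A low, while those without lie mostly at low to middle SWP73B percentiles.

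The ATPases divided the classes. An ATPase was counted at a region when both libraries of its line had a peak there. For SYD these are libraries 3 and 4, whose label and list name state the same line, as do those of the BRM lists. Both lists named MINU2-GFP minu2-1 carry the label SYD-GFP syd-5, and their name was not checked at the MINU2 locus. At equal numbers, BRM was found at 91.7% of SWP73A-alone regions (3199 of 3490, interval 90.7% to 92.5%) but at 52.1% of SWP73B-alone regions (1959 of 3757, interval 50.5% to 53.7%). SYD was found at 89.8% of SWP73A-alone regions (interval 88.8% to 90.8%) and 45.5% of SWP73B-alone regions (interval 44.0% to 47.1%). MINU2 had the opposite order, with 57.1% of SWP73A-alone (interval 55.5% to 58.7%) and 97.4% of SWP73B-alone regions (interval 96.8% to 97.8%). Shared regions held BRM at 96.3%, SYD at 96.7% and MINU2 at 95.1%. Over all 12442 regions the percentages were 81.7% for BRM, 79.3% for SYD and 85.1% for MINU2. The cut places sites of lower SWP73B rank among the SWP73A-alone regions, and MINU2 also rose with SWP73B rank at shared regions. From all peaks, MINU2 was at 38.4% of shared regions in the weakest quintile of the SWP73B list and 97.8% in the strongest. How far the cut sets the MINU2 difference was not tested.

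Each ATPase library by itself gave the same order. The first and second BRM libraries had peaks at 93.4% and 92.8% of SWP73A-alone regions and at 61.6% and 59.0% of SWP73B-alone regions. The SYD libraries gave 92.9% and 91.6% against 56.6% and 54.4%. For MINU2 the values were 62.9% and 69.7% of SWP73A-alone regions against 97.7% and 98.5% of SWP73B-alone regions. Differences between the classes thus exceeded those between libraries of 1 ATPase line. This covers the spread of the ATPase lists only, since the classes themselves rest on 1 SWP73A and 1 SWP73B library.

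SWP73A-alone minus SWP73B-alone percentages depended in size on how an ATPase peak was counted. With each ATPase list cut to its 8960 strongest peaks, BRM was at 74.9% of SWP73A-alone and 19.3% of SWP73B-alone regions, SYD at 67.2% and 15.3%, and MINU2 at 8.31% and 82.4%. With a peak of either library counted, MINU2 was at 75.4% and 98.9%, a difference of 23.5 points in place of 40.3. With lists assigned by sample label instead of by list name the MINU2 difference turned over, to 67.6 points more in the list labelled SWP73A-GFP, while those of BRM and SYD kept their direction.

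With all peaks in place of equal numbers, BRM was at 95.5% of shared, 63.9% of SWP73A-alone and 49.0% of SWP73B-alone regions, with 67.2% over all 21491. SYD was at 95.1%, 61.9% and 44.4% (64.3% over all), and MINU2 at 83.2%, 6.35% and 69.7% (74.2% over all). Only 16 of the 252 SWP73A-alone regions held a MINU2 peak of both libraries. This class excludes every region with a SWP73B peak. The whole SWP73B list had a peak at 94.1% to 99.7% of regions in each ATPase combination with MINU2, and at 43.4% to 78.4% in those without. How far this sets the MINU2 share of the class was not tested. When peaks of all lists were held to a −log10 q of at least 10, 84 SWP73A-alone regions remained and the BRM and SYD differences turned over, to 5.46 and 6.02 points more in SWP73B-alone regions, each with an interval that spans 0.

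**Figure D3:**
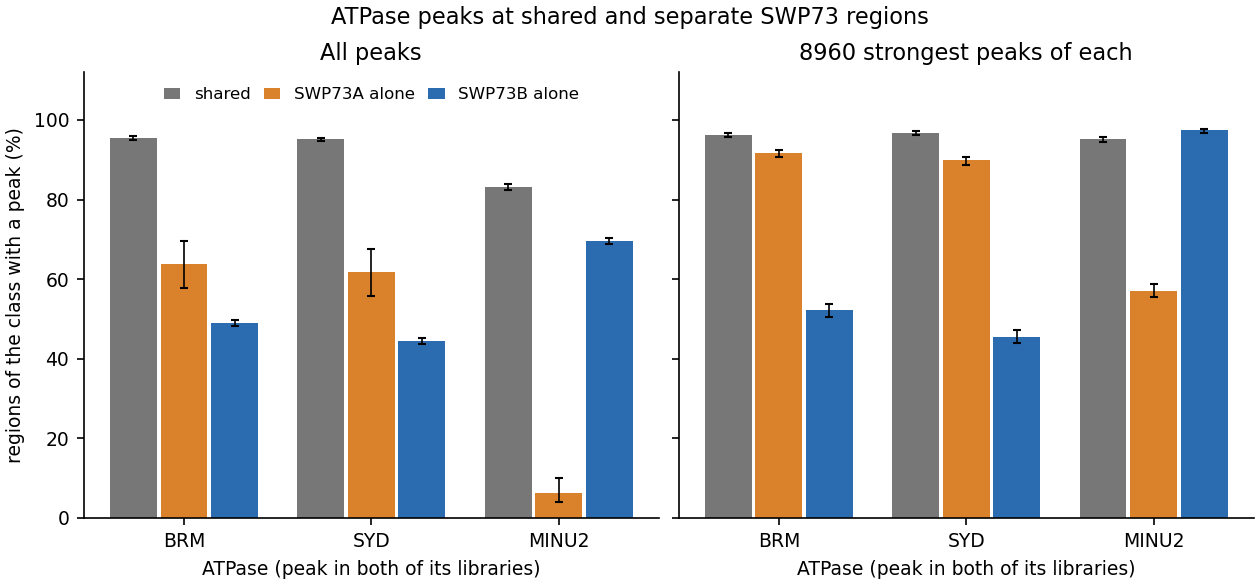
Bars give the percentage of shared, SWP73A-alone and SWP73B-alone regions with a peak of both libraries of BRM, SYD or MINU2, from all peaks (left) and from the 8960 strongest of each list (right). Error bars are Wilson 95% intervals, which cover counting error only; SWP73A-alone bars stand above SWP73B-alone bars for BRM and SYD and below them for MINU2 in both panels.

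Combinations of ATPases were divided as well, in the same classes and under the same cut. Of the SWP73A-alone regions at equal numbers, 36.4% (interval 34.8% to 38.0%) held BRM and SYD without MINU2, against 1.97% (interval 1.57% to 2.47%) of the SWP73B-alone regions. MINU2 without BRM and SYD was found at 2.18% of SWP73A-alone regions and 35.6% (interval 34.1% to 37.2%) of SWP73B-alone regions. All 3 ATPases were present at 49.9% of SWP73A-alone, 31.6% of SWP73B-alone and 89.2% of shared regions.

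Seen from the ATPases, 2068 regions held BRM and SYD without MINU2, and SWP73A had a peak at 34.8% of them, the 8960 strongest SWP73B peaks at 9.96% and the whole SWP73B list at 78.4%. At 4033 regions with MINU2 alone of the 3, the values in the same order were 2.90%, 34.3% and 94.1%. At 8345 regions with all 3 they were 72.5%, 68.5% and 99.7%. At 925 regions with BRM alone they were 4.86%, 1.41% and 43.4%, and at 853 with SYD alone 4.45%, 1.29% and 53.2%.

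The pattern was then read within quintiles of peak strength. Within the strongest quintile of the SWP73B list, BRM was at 54.3% of SWP73B-alone and 95.8% of shared regions, SYD at 47.2% and 97.0%, and MINU2 at 99.4% and 97.8%. In the weakest quintile MINU2 was at 33.7% and 38.4%, and BRM at 44.1% and 86.3%. BRM and SYD were thus less frequent at SWP73B-alone than at shared regions at each end of the list. Over the whole list, the strongest SWP73B peak of a region had a median width of 825.5 bp at shared and 529 bp at SWP73B-alone regions. Overlap counts from 1 bp, and the part of this width difference was not tested. MINU2 varied with SWP73B strength, and from the second quintile up it was more frequent at SWP73B-alone than at shared regions, with intervals that did not overlap: 64.8% against 59.6%, 87.3% against 78.1% and 96.5% against 92.5% in the middle 3. In the weakest quintile the 2 intervals overlapped.

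A graded form of the same pattern was present inside the shared regions. These were ordered by the rank of SWP73A minus that of SWP73B among the shared regions and divided into quintiles of 1664. From the quintile in which SWP73B ranked higher to the quintile in which SWP73A ranked higher, the share with MINU2 was 97.1%, 89.7%, 81.4%, 77.5% and 70.3%. Over the same quintiles the median SWP73B percentile went from 84.2 to 45.1, so rank difference and SWP73B rank were not separated. The median percentile of the MINU2 peaks present went from 78.6 to 29.0 in the first MINU2 library and from 80.3 to 31.2 in the second. BRM was present at 93.1% to 98.0% of each quintile, and the median percentile of its peaks went from 61.1 to 84.9 in the first library and from 60.2 to 84.7 in the second. SYD percentiles went from 60.6 to 80.4 in library 3, with the highest value, 83.1, in the middle quintile.

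Rank agreement with the ATPase lists followed that division. Across shared regions with a peak of the list in question, rho with BRM library 1 was 0.500 for SWP73A and 0.135 for SWP73B (8042 regions). With SYD library 3 it was 0.554 and 0.276 (8062 regions), and with MINU2 library 1 it was 0.090 and 0.647 (7132 regions). These values describe regions that share the same SWP73 libraries.

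Accessory subunits fell on either side as well. The list named SWI3C-GFP is labelled BCL7A-GFP bcl7a-1, the BSH list SYD-GFP syd-5 brm-1 and the SWI3A list SWP73B-GFP swp73b-1. These names were not checked at the tagged genes' loci. At 8960 strongest peaks of each list, the list most like SWP73A by Jaccard index was SWI3C, at 0.546, against 0.399 with SWP73B. The list most like SWP73B was BSH, at 0.540, against 0.227 with SWP73A. MINU2 libraries gave 0.511 and 0.526 with SWP73B and 0.222 and 0.220 with SWP73A, and SWI3A 0.470 and 0.176. The 3 SWI3D libraries gave 0.409 to 0.415 with SWP73A and 0.327 to 0.368 with SWP73B. By this index BRM and SYD-N-GFP syd-5 libraries were only slightly closer to SWP73A, with 0.319 to 0.384 against 0.292 to 0.325. BCL7A and BCL7B were closer to SWP73B, at 0.431 and 0.378 against 0.297 and 0.290. Peak overlap gave another order. BRM and SYD-N-GFP syd-5 overlapped 80.4% to 84.3% of SWP73A and 57.9% to 61.4% of SWP73B peaks, and SWI3C 79.6% and 62.2%. BCL7B overlapped 83.5% and 77.1%, and BCL7A 75.7% and 78.5%. Median peak width differed, at 735 bp in BRM library 1 and 480 bp in SWP73A, and its part was not tested.

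Both orders were also found within the set of lists with organelle peaks, to which SWP73A, SWP73B and MINU2 belong and BRM and SYD do not. SWI3C peaks were at 83.5% of SWP73A-alone and 40.3% of SWP73B-alone regions at equal numbers, and peaks of the 3 SWI3D libraries at 79.6% to 89.2% and 33.3% to 54.2%. In that same set SWI3A was at 67.8% and 98.2%, and BSH at 77.2% and 99.1%. List length differed there too, with 12242 peaks for SWI3C and 13030 to 16629 for SWI3D, against 19263 for SWI3A and 19631 for BSH. Whether the set or list length contributes to the orders was not tested. BCL7A, of the set without organelle peaks, was at 94.8% and 99.7%.

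**Figure D4:**
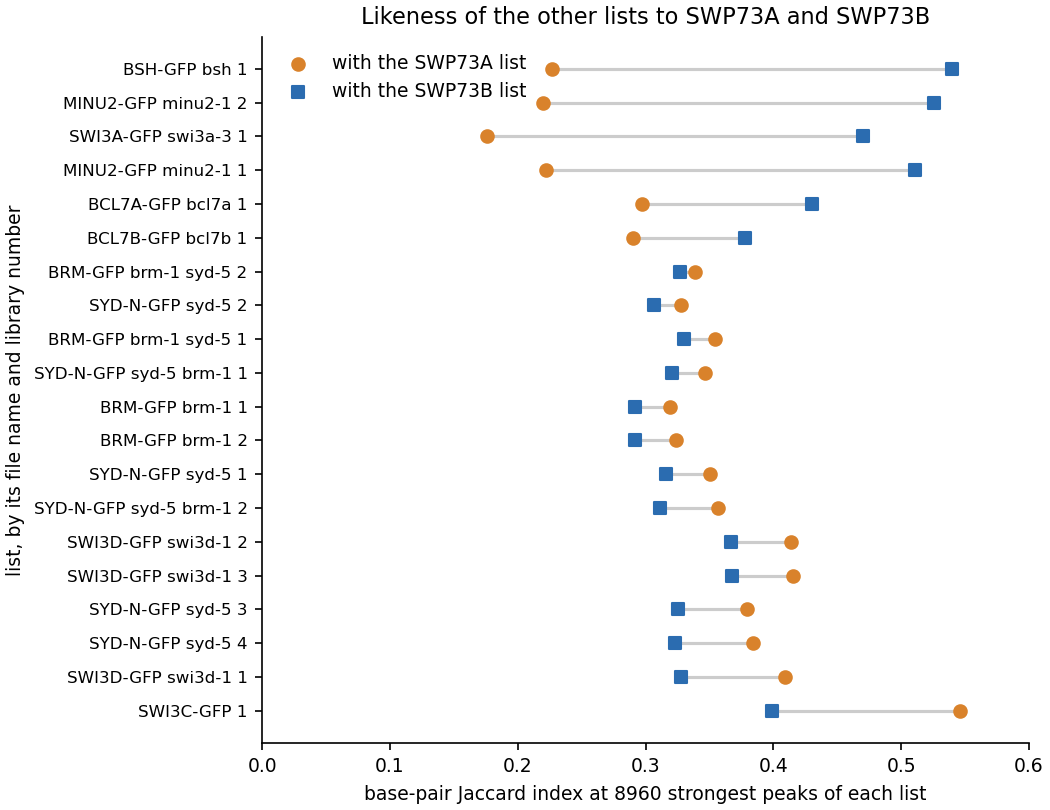
For each list with at least 8960 peaks, the plot gives the base-pair Jaccard index at the 8960 strongest peaks with the SWP73A list (circles) and with the SWP73B list (squares), ordered by the difference. SWI3C lies farthest towards SWP73A (0.546 against 0.399) and BSH, MINU2 and SWI3A towards SWP73B (up to 0.540 against 0.227).

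Separate regions also lay at different places relative to genes. At equal numbers 73.1% of SWP73B-alone summits (interval 71.7% to 74.5%) were inside a protein-coding gene and 89.6% were within 300 bp of a gene's start or end. Of the SWP73A-alone summits 53.9% (interval 52.2% to 55.5%) were inside a gene and 47.1% within 300 bp of a gene end. Shared regions were intermediate in the second measure, at 67.3% by the SWP73A summit and 70.2% by the SWP73B summit. The gene table gives no strand, so starts and ends of genes cannot be told apart here.

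Genes were counted as holding a peak when a summit lay in the gene or within 500 bp, a window that can also take in the peak of a neighbouring gene. Of 27444 protein-coding genes 28.8% held a SWP73A peak and 66.3% a SWP73B peak. Both were present at 27.5%, SWP73A alone at 1.31%, SWP73B alone at 38.8% and neither at 32.4%. With the 8960 strongest SWP73B peaks the classes were 20.0% both, 8.85% SWP73A alone, 17.2% SWP73B alone and 54.0% neither, and 37.1% of genes held one of those SWP73B peaks. Only the SWP73B list is shortened there, so a gene counted as SWP73A alone can still rank higher in SWP73B. The median percentile at genes with both was 52.6 for SWP73A and 76.1 for SWP73B.

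The genes of the SWI/SNF subunits themselves were SWP73B sites. All 18 held a SWP73B peak (66.3% of all genes), 6 of them with SWP73A too (27.5% of all genes held both) and 12 with SWP73B alone (38.8% of all genes). The 6 were the ATPase gene BRM, the bromodomain subunit genes BRD1, BRD2 and BRD13, and the SWP73 genes, with a median percentile of 83.5 in SWP73A and 93.2 in SWP73B. The SWP73 genes are the tagged genes, at percentiles of 99.2 (SWP73A) and 99.98 (SWP73B) in their own lists. Those own-locus peaks also served to check the list names, and signal from the fusion construct cannot be told apart from occupancy there. At BRD13 the fold was 6.69 in the SWP73A list and 7.65 in the SWP73B list, at percentiles of 99.4 and 99.8. At the BRM gene the folds were 4.17 and 5.87. SWP73A had a peak at SWP73B with a fold of 2.65 (percentile 44.7), and SWP73B one at SWP73A with a fold of 4.18 (percentile 65.9), so each list covered the other paralogue's gene.

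The 12 subunit genes with SWP73B alone were SYD, MINU1, MINU2, SWI3A, SWI3B, SWI3C, SWI3D, BSH, BCL7A, BCL7B and the actin-related protein genes ARP4 and ARP7. Among them ARP7 had the highest fold, 6.57 (percentile 97.7), followed by BSH with 5.28 (percentile 91.6) and SYD with 5.28 (percentile 85.1). At equal numbers 9 of the 18 subunit genes were SWP73B alone, against 17.2% of all genes, and the SWP73B peaks at MINU1, MINU2 and BCL7A were outside the 8960 strongest. No subunit gene was SWP73A alone.

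Circadian clock and light signalling genes were mostly held by both paralogues. Of 18, 15 held both (27.5% of all genes) and 3 SWP73B alone (38.8% of all genes), with median percentiles over the 15 of 80.7 in SWP73A and 74.9 in SWP73B. TOC1, an evening clock repressor, had folds of 4.55 and 5.18, at a percentile of 95.1 in both lists. The photoreceptor gene PHYB had folds of 4.17 and 5.71. LHY, a morning clock repressor, had 3.92 and 6.84. The 3 with SWP73B alone were the evening complex genes LUX (fold 3.40) and ELF4 (4.16) and the pseudo-response regulator PRR5 (2.52). At equal numbers the 2 genes PRR7 and PRR9 counted as SWP73A alone (8.85% of all genes), at percentiles of 19.1 and 51.2 in SWP73A and 55.2 and 57.1 in SWP73B.

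Hormone pathway genes gave the fewest SWP73B-alone members. Of 20, 15 held both (27.5% of all genes), 5 neither (32.4%) and 0 SWP73B alone (38.8%) or SWP73A alone (1.31%). At equal numbers 6 of the 20 counted as SWP73A alone (8.85% of all genes). These were the gibberellin genes GA3OX1, GAI and RGA, the cytokinin response regulators ARR4 and ARR5, and the brassinosteroid factor BES1. GA3OX1 and GAI had the higher percentile in SWP73B, at 19.9 and 56.8 against 19.1 and 37.9 in SWP73A. RGA, ARR4, ARR5 and BES1 had the higher percentile in SWP73A. The 9 other genes with both peaks stayed in both lists. Among them were EIN3, the ethylene transcription factor, with folds of 3.92 and 5.79, and ARR7, with 4.05 and 5.22. ABI3 and ABI4, transcription factors of abscisic acid signalling, were among the genes with no peak of either paralogue.

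Of 18 flowering regulators, 7 held both (27.5% of all genes), 5 SWP73B alone (38.8% of all genes), namely CO, LFY, FUL, SEP3 and FLM, and 6 neither (32.4% of all genes), FT among them. CO, which activates FT in long days, had a SWP73B fold of 4.98 (percentile 89.2) and no SWP73A peak. FLC, a repressor of flowering, had folds of 2.47 and 4.71 at percentiles of 32.1 and 76.5. SVP, another repressor, had the reverse order of ranks, with a percentile of 93.0 in SWP73A (fold 4.14) and 45.1 in SWP73B (fold 3.003). At equal numbers SVP, SOC1 and SPL9 counted as SWP73A alone (8.85% of all genes) and CO as SWP73B alone. SOC1 had percentiles of 34.7 in SWP73A and 17.8 in SWP73B, and SPL9 of 4.89 and 15.5.

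Among 20 leaf polarity and meristem genes, 9 held both (27.5% of all genes), 5 SWP73B alone (38.8%), namely AS1, KAN2, YAB3, ARF3 and CUC1, and 6 neither (32.4%), among them WUS and STM, which maintain the shoot meristem. KAN1, which specifies the lower leaf side, had folds of 3.79 and 4.61, and REV, which specifies the upper side, 3.79 and 5.48. CUC1, a boundary gene, had a SWP73B fold of 4.04 (percentile 75.8) and no SWP73A peak. The 5 genes PHB, ATHB8, ARF4, IAMT1 and CUC3 counted as SWP73A alone at equal numbers (8.85% of all genes). Their percentiles were 34.2 to 50.2 in SWP73B and 4.89 to 54.7 in SWP73A. Of these, ATHB8, ARF4 and IAMT1 had the higher percentile in SWP73B, and PHB and CUC3 in SWP73A.

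The strongest SWP73A-alone regions differed in kind from the strongest SWP73B-alone regions. No untagged control was analysed, so occupancy cannot be told apart from background signal at these single regions. Of the 5 strongest SWP73A-alone regions, 4 lay on chromosome 3 between positions 13814687 and 14224315, outside protein-coding genes, and 1 in UBQ13, a polyubiquitin gene on chromosome 1 (24275287 to 24275779, TAIR10, as are all positions here). The first had a fold of 8.09 at positions 13816127 to 13816412 and was found in 4 of the 26 lists. None of the 5 held a BRM or SYD peak, and 2 held a MINU2 peak of both libraries. In the strongest quintile of the SWP73A list as a whole, 0 of 15 SWP73A-alone regions held BRM (interval 0% to 20.4%), against 95.1% of shared ones, so these few strong regions differ from the many weak SWP73A-alone regions, where BRM was at 78.5%.

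The strongest SWP73B-alone regions were at ends of genes on chromosomes 1, 2 and 3. The first lay in SYP71, encoding a SNARE protein of membrane fusion, on chromosome 3 from 2989241 to 2989833. Its SWP73B fold was 11.003, with MINU2 folds of 10.98 and 11.4 and BRM folds of 4.12 and 4.98. POP4, encoding a subunit of RNA-processing ribonucleases, followed on chromosome 2 (17955544 to 17956382) with a SWP73B fold of 10.4, MINU2 folds of 8.43 and 9.002 and no SYD peak. The other 3 were at AT1G52590, AT2G42640 and AT3G44570, with SWP73B folds of 12.2, 11.2 and 10.7, and the last of these held no ATPase peak.

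At the 5 shared regions with the largest rank difference towards SWP73B, MINU2 folds stood above BRM and SYD folds. The 5 with the largest difference towards SWP73A were not all alike. COL5, a CONSTANS-like B-box gene on chromosome 5 (23355385 to 23356026), had the largest rank difference towards SWP73A, with percentiles of 95.5 and 12.3 (folds of 3.55 and 1.94). There the BRM folds were 4.72 and 3.89, the SYD folds 8.39 and 8.85 and the MINU2 folds 1.99 and 2.28. At AT1G63840 the BRM folds were likewise high, at 12.1 and 11.3, with MINU2 called in 1 library at 2.24. The other 3 did not have this order. AT1G65346 held no BRM or SYD peak, with MINU2 called in 1 library at 1.85. At 2 sites outside genes on chromosome 5 MINU2 folds of 3.07 to 4.59 stood above BRM and SYD folds of at most 1.85. TGA6, a bZIP factor of salicylic acid responses on chromosome 3 (3905016 to 3905910), had the largest difference towards SWP73B, with percentiles of 1.14 in SWP73A and 98.5 in SWP73B (folds of 1.90 and 7.94). Its MINU2 folds were 12.01 and 11.04, its SYD folds 2.49 and 2.63, and no BRM peak was called. The others were at the lectin receptor kinase gene AT5G60280, the mitochondrial protein genes NFU4 and LETM2, and AT2G02960, with MINU2 folds of 4.40 to 8.35 and BRM folds of 1.88 to 3.45.

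The 5 regions strongest in both lists had no BRM peak. They had −log10 q values of 543 to 2578 in SWP73B and 975 to 4569 in SWP73A, and 4 of them lay outside protein-coding genes. Their folds of 6.10 to 10.4 in SWP73A, 6.24 to 11.7 in SWP73B and 5.48 to 9.93 in MINU2 were alike across these lists. SYD folds there were 1.47 to 1.89 in 4 regions, and the last had no SYD peak. They were found in 12 to 19 of the 26 lists. The 4 outside genes lay 4685 to 95636 bp from the nearest protein-coding gene. Without an untagged control, occupancy by either paralogue cannot be told apart from background signal at these regions.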

How the data were processed

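Peak lists of 26 Arabidopsis ChIP-seq libraries were used, 1 per library and none pooled. The submitters' processing notes name fastp, Bowtie2, MACS2 2.0, deepTools, ChIPseeker and the build TAIR10, without roles or settings; the control used for peak calling is not given in the sources used here. In the deposited lists each peak has a fold enrichment (a linear ratio), a −log10 p, a −log10 q (column 9), a score (10 times column 9 without its decimals) and a summit, all as the authors made them. The lowest −log10 q of a list was 1.30 to 1.52, so weaker peaks are not listed, and no read numbers or depths are given. Fold and −log10 q were used to describe, rank or filter peaks; folds of different lists stand side by side without a test.

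Lines were taken from list names, not labels, and groups by label are an alternative. Chromosomes 1 to 5 were used. Peaks were merged from 1 bp of overlap with Python 3.11.15, numpy 2.4.6, pandas 2.3.3 and scipy 1.17.1, and the overlap tools were checked on simulated lists. Named regions are the 5 strongest of each class and the 5 shared regions with the largest percentile difference in each direction. Named genes are those of 5 lists (94 genes, all matched) held by 1 paralogue alone, the tagged genes, and further list members given as examples, chosen after their values were seen. The planned promoter window was replaced by the gene with 500 bp on each side, because the RefSeq gene table (assembly TAIR10.1) gives no strand. Of SWP73B summits 68.9% lay within 300 bp of a gene end in that table, and 18.8% to 26.6% once it was moved by 1000 or 5000 bp. The own-locus check, the ATPase lists cut to 8960 peaks, the quintiles of rank difference, the view from the ATPases, the other settings named in the closing section as added, and the summit positions were chosen after the data were seen. The members, lists and comparisons were chosen with earlier results of these data known. Every list belongs to 1 sample. No genome sequence was used here. One gene of the lists is counted but not reported by name here.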

Additional observations from a re-analysis of the deposited data

How the results depend on the processing

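Over 15 results, 80 alternative values were computed. Of these 20 stayed within counting error, the spread of same-line pairs or 1.5 times the count, 56 moved further and 4 changed sign. The cause of each change was not tested, except where a setting by its construction shortens a list or counts fewer peaks.

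Overlap of at least 50% of both peaks gave 64.1% of SWP73A peaks and 26.9% of SWP73B peaks as overlapping, and 39.1% at equal numbers. Peaks with a −log10 q of at least 10 gave 2418 shared regions, 96.7% and 15.3% of peaks and a Jaccard index of 0.143. Equal numbers by −log10 q gave 5195 regions, 61.0% and 58.1%, a rho of 0.350 and a summit distance of 51 bp. Equal numbers by fold gave 4644 regions, 54.3% and 51.9%, a mean of 53.1%. Organelle peaks included gave 96.7% of SWP73A peaks. Pairs overlapping by at least 50% gave a rho of 0.565. At the added numbers of 4000 and 1000 strongest peaks the mean overlap was 47.6% and 36.8%. Lists by sample label gave 4705 shared regions, 92.3% and 24.9% of peaks, a Jaccard index of 0.175, a rho of 0.028 and a summit distance of 88 bp.

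For the percentage with an ATPase peak, SWP73B alone minus SWP73A alone, the values from all peaks were −14.9 points for BRM, −17.5 for SYD and 63.3 for MINU2, and from equal numbers −39.5, −44.3 and 40.3. A peak of either library gave −7.45, −11.2 and 56.7 from all peaks and −26.1, −29.3 and 23.5 from equal numbers. A −log10 q of at least 10 gave 5.46 and 6.02 (both reversed, from 84 SWP73A-alone regions) and 53.4, and at equal numbers −49.4, −50.8 and 52.0. Coverage of at least 50% of the ATPase peak or region gave −42.1 for SYD and 42.8 for MINU2 at equal numbers. ATPase lists cut to 8960 peaks (added) gave −29.8 for BRM and 33.2 for MINU2 from all peaks, and −55.6, −51.9 and 74.1 at equal numbers. Lists by sample label gave −38.1, −46.0 and −52.2 from all peaks and −44.1, −55.2 and −67.6 at equal numbers, so both MINU2 values reversed. The 2 further SYD lists gave −37.0 and all 4 gave −47.1 at equal numbers. Leaving out each library of a line in turn gave −12.3 to −10.1 for BRM, −15.1 to −13.6 for SYD and 57.3 to 62.7 for MINU2 from all peaks, and −33.9 to −31.7, −37.3 to −36.3 and 28.9 to 34.9 at equal numbers. Leaving out a SWP73 library was not possible, since each paralogue has 1.

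A window of 1000 bp beside genes (added) gave 2552 SWP73A-alone genes at equal numbers against 2428, and 4990 SWP73B-alone genes against 4712. The planned promoter windows were not run, since the gene table gives no strand. No paired analysis was possible because each paralogue has 1 library and no result comes from a test. Depth is unknown, so an uncalled region is not shown to be unoccupied, above all in the shorter SWP73A list.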
